A study of Mus musculus with 12 samples.

Results

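The response of FOXO1-null cytotoxic T lymphocytes (CTL) to inhibition of PI3K p110δ was measured by RNA sequencing. The comparison was chosen by its labels alone: the 3 libraries labelled FOXO1-GFP KO + PI3Kdi were set against the 3 labelled FOXO1-GFP KO, and libraries were paired by their biological replicate (BR) number. These were 6 of the 12 libraries of the series, and all 13283 genes of the expression table were tested. CTL are effector CD8 T cells. They were grown from lymph node or spleen cells of female mice aged 11 to 27 weeks, activated for 48 h through CD3 and CD28. IL-2 at 20 ng/mL together with IL-12 at 2 ng/mL was then used to expand them. On day 6, cells were placed in vehicle (DMSO) or in 10 µM IC87114, an inhibitor of the catalytic subunit p110δ (PI3Kdi), and kept there for 24 h. FOXO1-GFP KO CTL came from FOXO1-GFP fl/fl mice that carried Cre recombinase under the granzyme B promoter, and the CD8+ cells that had lost the GFP-tagged protein were sorted. Because that promoter is active in activated T cells, these cells had FOXO1 before they became CTL. The WT CTL, given here only for comparison, carried the same Cre and were sorted as CD8+ cells without a GFP gate. They were also measured in 3 libraries with vehicle and 3 with PI3Kdi. The labels do not say that the libraries of a pair came from the same mouse.

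PI3K p110δ is the main class I PI3K of lymphocytes. It makes the membrane lipid PIP3, which activates the kinase AKT. AKT phosphorylates the FOXO transcription factors, which then leave the nucleus, so that inhibitors of PI3K let FOXO proteins return to it. In T cells FOXO1 is known for driving genes of naive and memory cells, such as Il7r, Klf2, S1pr1 and Tcf7, and FOXO3 and FOXO4 bind the same core DNA sequence. PI3K p110δ also modulates the ERK pathway. The paper states that a main complex of the kinase mTOR does not require PI3K p110δ for its activity in T cells of this lineage. It also reports that mRNAs for the control of lipid metabolism were not direct targets of PI3K p110δ. The comparison addresses which of the mRNA changes made by the inhibitor are seen in CTL that lack FOXO1.

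The 6 libraries had effective sizes of 12.9 to 32.8 M reads (M, 1e6), as recovered from the spacing of low values. These sizes include the authors' scaling and cover only reads counted in genes. The median number of estimated reads per gene ran from 282 to 732. Foxo1 mRNA was 0.58, 1.08 and 1.44 FPKM (fragments per kilobase of exon and 1e6 reads) in FOXO1-GFP KO replicates 1, 2 and 3. It was 0.61, 1.06 and 1.75 with PI3Kdi, and the difference did not pass the test (log2 fold change 0.10, adjusted p = 0.684, limma). In both groups replicate 1 was lowest and replicate 3 highest. Without PI3Kdi, Foxo1, Foxo3 and Foxo4 summed to 6.20 to 7.56 FPKM in FOXO1-GFP KO and 11.7 to 18.1 FPKM in WT. Reads of the remaining exons still count toward Foxo1, so this value checks the level of its transcripts, not the protein. Whether the deletion was complete was not tested. Pairs differed more than treatments did. The first principal component of the 6 libraries held 60.3% of the variance, and 80.8% of it lay between pairs and 18.6% between vehicle and PI3Kdi. The pair of replicate 3 had the most mitochondrial reads (6.12 and 6.80% of summed FPKM, against 3.54 to 3.97% in the other libraries), with 14.7 and 15.7% from ribosomal protein genes against 11.9 to 13.8%. All 10 CD8 T cell markers were in the table. Of markers of other cells, 3 of 12 for B cells, 4 of 12 for myeloid cells, 3 of 4 for CD4 T cells, 4 of 6 for NK cells and 0 of 6 for erythroid cells were in it, and none was called. B cell markers summed to 4.48 to 6.88 FPKM without and 4.31 to 6.36 FPKM with PI3Kdi, and of the 3 only Igkc was listed at 0 in the 3 libraries with PI3Kdi. Myeloid markers summed to 15.9 to 21.7 and 21.7 to 27.3 FPKM, most of it Cd68, and NK cell markers to 4549 to 5453 and 5808 to 7432 FPKM, most of it Gzma, which CTL also express. The part of other cells in the results below was not tested.

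Inhibition of PI3K p110δ changed 370 of the 13283 genes in CTL without FOXO1 (2.79%). Of these, 242 rose (1.82%) and 128 fell (0.964%). A gene was called at an adjusted p under 0.05 (limma on log2(FPKM + 0.1), replicate block, Benjamini-Hochberg across the whole table) and a fold change above 1.5. The changes were mostly small: the median log2 fold change was 0.78 for the called rises and -0.74 for the called falls, and 61 genes (49 higher, 12 lower) passed a fold of 2. At any fold, 1339 genes (10.1%) had an adjusted p under 0.05, 800 higher and 539 lower. The libraries with and without PI3Kdi did not overlap for 217 of the 370 called genes, against 1339 of all genes, also 10.1%, of which 665 had an adjusted p under 0.05. The 3 pairs moved the same way for 363 of the called genes, against 49.6% of all genes. Protein-coding genes made up 247 of the called genes. Just inside the fold threshold lay Mycn (log2 fold change -0.586) and Calcoco1 (0.587), and just outside it Tctex1d1 (0.582) and Syn1 (-0.582).

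The calls rested on the pairing of libraries. Without the replicate block, only 6 genes were called (0.0452%), and 687 had an unadjusted p under 0.05. The 6 were Kit, Cables1, Pdcd4, Prnp, Tnfrsf26 and the noncoding RNA 2610300M13Rik, and all of them rose. Pdcd4, an inhibitor of translation that AKT and S6 kinase are known to mark for degradation, was 8.31, 8.74 and 8.63 FPKM without PI3Kdi and 15.4, 15.7 and 17.4 FPKM with it. Prnp, which encodes the prion protein, was 13.5, 14.8 and 13.9 FPKM, and 24.3, 29.3 and 27.5 FPKM with PI3Kdi. Every library with PI3Kdi lay above every library without it for both genes, and replicates within a group were close to each other. The log2 fold changes were 0.91 for Pdcd4 and 0.94 for Prnp (adjusted p = 1.39e-05 and 1.37e-05, limma), and the latter was the smallest adjusted p of the comparison. Leaving out the pair of replicate 2 left 190 calls, against 337 without replicate 1 and 242 without replicate 3.

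**Figure D1:**
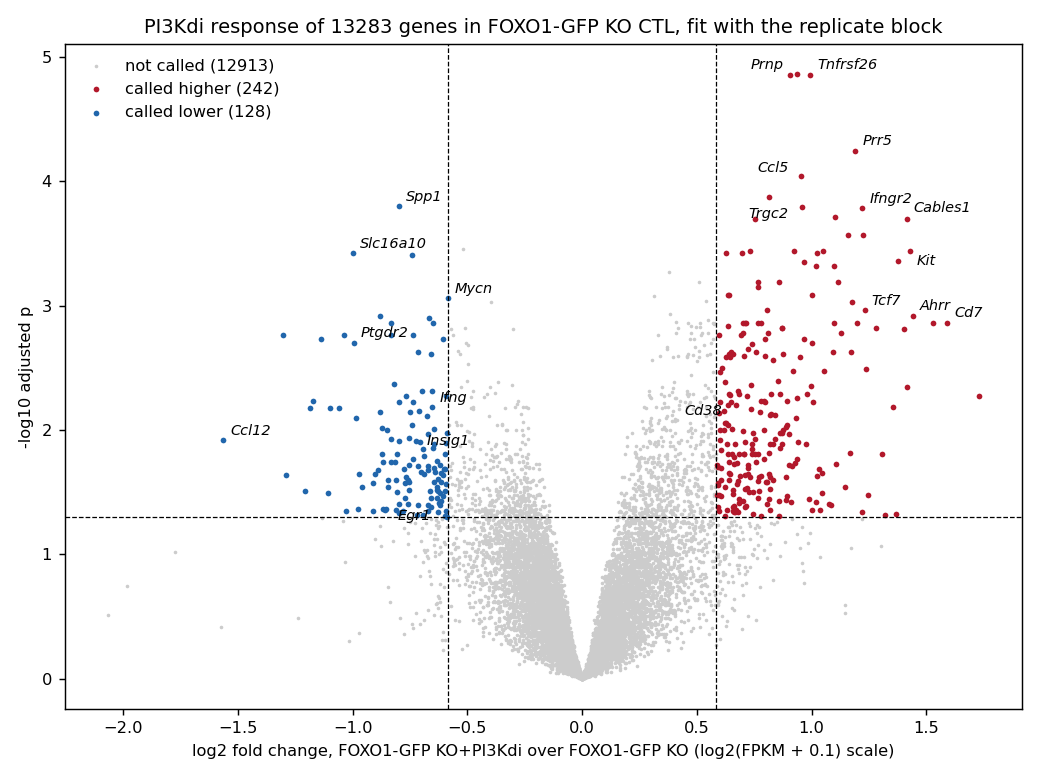
Volcano plot of the 13283 genes in FOXO1-GFP KO CTL. The x axis is the log2 fold change with PI3Kdi on the log2(FPKM + 0.1) scale and the y axis is -log10 of the adjusted p, with the 242 called rises and 128 called falls coloured. Rises outnumber falls.

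The 12 largest rises are given among called genes that reached a mean of 1 FPKM in a group, with no overlap between groups, every pair in one direction and no predicted gene model. Ahrr, which encodes the repressor of the aryl hydrocarbon receptor (AhR) and is itself induced by that receptor, was 0.28, 0.40 and 0.37 FPKM without PI3Kdi and 0.95, 1.83 and 0.78 FPKM with it. The lowest library with PI3Kdi was above the highest without it, and replicate 2 rose the most. The log2 fold change was 1.44 (SE 0.18, adjusted p = 0.0012, limma), a 2.71-fold difference. Kit, the receptor for stem cell factor, was 0.33, 0.46 and 0.29 FPKM and rose to 1.17, 1.13 and 1.07 FPKM, with a log2 fold change of 1.43 (SE 0.15, adjusted p = 0.000361). Cables1, which encodes a binding partner of cyclin-dependent kinases, rose from 2.67, 1.57 and 2.09 to 5.76, 5.14 and 6.14 FPKM (log2 fold change 1.41, SE 0.13). The groups of Kit and of Cables1 were far apart for their spread. Tcf7, which encodes the transcription factor TCF-1 of memory T cells, was 1.13, 0.90 and 0.88 FPKM without and 2.04, 2.87 and 2.35 FPKM with PI3Kdi (log2 fold change 1.23, SE 0.15, adjusted p = 0.00108).

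The other 8 of the 12 have different roles. Ifngr2, the signalling chain of the interferon gamma receptor, was 2.26, 2.54 and 4.11 FPKM and rose to 5.87, 6.19 and 8.72 FPKM with PI3Kdi (log2 fold change 1.22, SE 0.11, adjusted p = 0.000165). Prr5, a subunit of mTOR complex 2, the kinase that phosphorylates AKT, was 4.63, 7.15 and 5.39 FPKM and rose to 10.3, 17.2 and 12.3 FPKM (log2 fold change 1.19, SE 0.09, adjusted p = 5.69e-05). In both genes the groups did not overlap and each pair rose by a similar factor. Asb2, a substrate adaptor of a ubiquitin ligase, rose from 7.21, 7.95 and 8.49 to 15.4, 20.2 and 17.7 FPKM, a log2 fold change of 1.16. Tgfb3, a ligand of the TGF-beta family, rose from 1.23, 1.54 and 2.16 to 2.54, 4.11 and 5.71 FPKM (1.24, adjusted p = 0.00326), although its lowest library with PI3Kdi was close to its highest without. The transcriptional repressor gene Hic1 rose with a log2 fold change of 1.11, the calcium-binding protein gene S100a1 with 1.1, the ubiquitin ligase gene Dtx4 with 1.28 and the scaffold gene Mpp2 with 1.18. Each of these 12 rises stayed called when any 1 pair was left out.

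**Figure D2:**
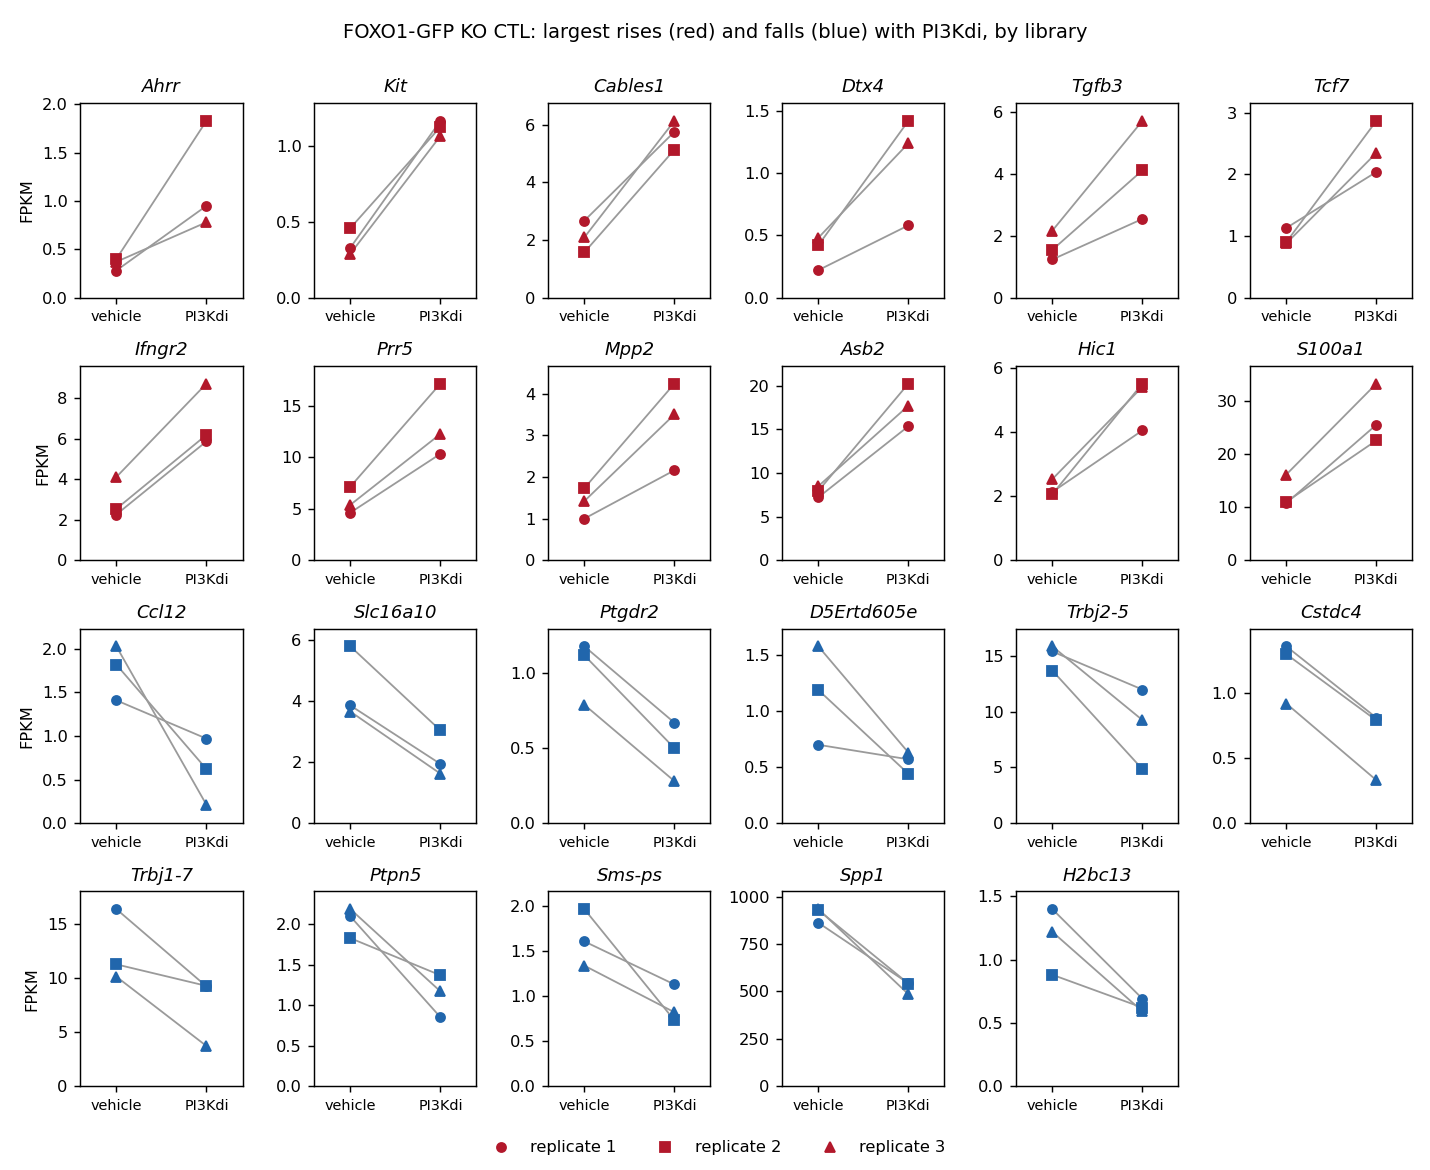
FPKM in each of the 6 FOXO1-GFP KO libraries for the 12 largest rises (red) and 11 of the 12 largest falls (blue), one panel per gene. Each y axis starts at 0 and lines join the libraries of a replicate pair. In every panel all libraries with PI3Kdi lie on one side of all libraries without it, as the rule for choosing these genes required.

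Promoter sequences are shown for 3 rising genes picked because they hold a letter match. These are Ahrr and Tiparp for the AhR core GCGTG and Ltb for the FOXO motif GTAAACA. Each is the 250 bases before the RefSeq start on GRCm38.p6, 5′ to 3′ on the gene's strand, with only matches to the motif named for that gene in capitals. That of Ahrr is chr13:74292332-74292581 on the minus strand, that of Tiparp chr3:65528197-65528446 on the plus strand and that of Ltb chr17:35194257-35194506 on the plus strand. Capitals in Tiparp are the core read on the opposite strand.
Ahrr: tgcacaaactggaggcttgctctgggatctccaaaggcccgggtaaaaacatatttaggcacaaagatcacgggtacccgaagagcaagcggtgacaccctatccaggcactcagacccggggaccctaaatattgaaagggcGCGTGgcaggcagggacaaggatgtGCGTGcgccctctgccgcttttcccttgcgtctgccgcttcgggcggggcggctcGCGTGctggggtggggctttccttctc
Tiparp: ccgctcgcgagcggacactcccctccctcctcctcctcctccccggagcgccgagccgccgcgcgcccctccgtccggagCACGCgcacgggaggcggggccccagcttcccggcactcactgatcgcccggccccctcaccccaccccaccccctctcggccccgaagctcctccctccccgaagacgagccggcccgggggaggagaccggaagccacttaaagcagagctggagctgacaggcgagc
Ltb: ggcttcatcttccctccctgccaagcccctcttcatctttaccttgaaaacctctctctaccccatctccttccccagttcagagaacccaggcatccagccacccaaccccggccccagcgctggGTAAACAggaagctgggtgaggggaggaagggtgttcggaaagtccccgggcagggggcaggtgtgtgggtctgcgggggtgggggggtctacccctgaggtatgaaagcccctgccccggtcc
In Ahrr the 3 matches begin 107, 82 and 27 bases before the start, in Tiparp the match begins 170 bases before it and in Ltb 124 bases before it. Of the motifs searched, only the shortest, GCGTG, was common in promoters. On either strand of the windows from 250 bases before to 50 after a start, GCGTG was in 49.2% of 179 windows of called rises, 28.9% of 90 windows of called falls and 50.3% of 12226 windows of all genes of the table. GTAAACA was in 6.15% (11 windows), 3.33% (3 windows) and 2.53% (309 windows). TCACNCCAC, a sterol regulatory element, was in 1.12%, 2.22% and 1.11%, which is 2 windows among the rises and 2 among the falls. Tiparp also held a match to TCACNCCAC. Of called FOXO targets, Ypel3 and Tcf7 held GTAAACA in a window, while Il7r, Klf2 and Irs2 did not. Of called AhR genes, Cyp1b1 held GCGTG and Nqo1 did not. Windows were matched for 149 of the 242 genes that rose and 68 of the 128 that fell. A match is a run of letters and does not show that a factor binds there.

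The 12 largest falls were chosen by the same rule as the rises. Ccl12, which encodes a chemokine for monocytes, was 1.41, 1.82 and 2.03 FPKM without PI3Kdi and 0.97, 0.62 and 0.21 FPKM with it. It was far down in replicate 3 and less so in replicate 1, and rested on 2 to 16 estimated reads per library with PI3Kdi. Its log2 fold change was -1.56 (SE 0.32, adjusted p = 0.0121, limma), and it was no longer called without replicate 2 (-1.64, adjusted p = 0.0745) or without replicate 3 (-0.96, adjusted p = 0.0707). Slc16a10, a transporter of aromatic amino acids, fell from 3.86, 5.80 and 3.66 to 1.94, 3.04 and 1.62 FPKM, with a log2 fold change of -1.0 (SE 0.11, adjusted p = 0.00038). Ptgdr2, a receptor for prostaglandin D2, fell from 1.18, 1.12 and 0.79 to 0.67, 0.50 and 0.28 FPKM (-0.99, adjusted p = 0.00198). Both kept their calls when any pair was left out, every pair of each fell, and the groups did not overlap.

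Spp1, which encodes the secreted protein osteopontin, was the most abundant mRNA among the largest falls. It was 863, 930 and 935 FPKM without PI3Kdi and 542, 541 and 484 FPKM with it. The means were 909 ± 40.3 and 522 ± 33.0 FPKM (SD, n = 3), a 1.74-fold difference, and the gap between groups was several times the spread within them (log2 fold change -0.80, SE 0.07, adjusted p = 0.000159, limma). Ptpn5, a tyrosine phosphatase that acts on ERK, fell from 2.10, 1.83 and 2.19 to 0.85, 1.37 and 1.17 FPKM (-0.82, adjusted p = 0.00427). A further 6 of the 12 largest falls were D5Ertd605e (-0.90), the T cell receptor beta joining segments Trbj2-5 (-0.87) and Trbj1-7 (-0.84), Cstdc4 (-0.86), the pseudogene Sms-ps (-0.81) and the histone gene H2bc13 (-0.77). These 6 lost their call when replicate 1, 2 or 3 was left out, Cstdc4, Sms-ps and H2bc13 in each case, with log2 fold changes that ran from -1.23 to -0.55 over all 6.

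The genes of the FOXO family and those for the subunits of PI3K and AKT were not called. None of 3 FOXO family genes was called. Foxo3 was 2.57, 3.34 and 2.72 FPKM without and 2.61, 3.39 and 2.74 FPKM with PI3Kdi, and Foxo4 was 3.05, 3.14 and 3.19 and then 2.89, 2.73 and 2.86 FPKM. Replicates of Foxo3 kept their order, and its log2 fold change was 0.02, against -0.14 for Foxo4. Of 21 genes for PI3K subunits, AKT kinases and lipid phosphatases, 0 were called, against 2.79% of all genes. Pik3r5, an adaptor of PI3K p110γ, came nearest, with a log2 fold change of 0.57 (adjusted p = 0.00137), and the regulatory subunit gene Pik3r2 was at -0.50. Pik3cd, which encodes p110δ, was at 0.12 (adjusted p = 0.207). Of 18 regulators of mTOR and of insulin receptor feedback, 0 were called and the median log2 fold change was -0.02, the same as over all genes.

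Most genes known as FOXO1 targets of T cells rose in CTL that lacked FOXO1. Of 6 such genes, 4 were called higher and 0 lower, against 1.82% and 0.964% of all genes. Of the 6, 5 had an adjusted p under 0.05. All 6 were above 0, beside 46.6% of all genes, with a median log2 fold change of 0.88, against -0.02 over all genes. The list was made with the study's own text on these samples in view, so its direction is not independent evidence. Il7r, the IL-7 receptor that keeps naive and memory T cells alive, was 4.85, 6.85 and 3.47 FPKM and rose to 8.48, 14.5 and 7.23 FPKM with PI3Kdi (log2 fold change 0.97, SE 0.14, adjusted p = 0.00185, limma). S1pr1, the receptor by which T cells leave lymph nodes, was 0.82, 1.33 and 1.45 FPKM and rose to 1.63, 3.46 and 2.29 FPKM (0.95, adjusted p = 0.0026). Klf2, the transcription factor that drives S1pr1, was 1.76, 1.04 and 0.97 FPKM and rose to 2.56, 1.59 and 2.67 FPKM (0.82, adjusted p = 0.0239). The groups of Il7r and S1pr1 did not overlap, while Klf2 replicate 2 with PI3Kdi lay below replicate 1 without it. Klf2 was not called without replicate 2 (0.94, adjusted p = 0.0737) or without replicate 3 (0.54, adjusted p = 0.171). Ccr7, the lymph node homing receptor, was at 0.41 and was not called (adjusted p = 0.102).

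Among 22 targets that FOXO factors share across tissues, 2 were called higher and 0 lower, against 1.82% and 0.964% of all genes. The median of the list was a log2 fold change of 0.12, with 15 genes above 0, beside 46.6% of all genes, and 7 below. Of the 22, 8 had an adjusted p under 0.05, 6 higher and 2 lower, beside 6.02% and 4.06% of all genes. The 2 lower were Cited2 (-0.57, adjusted p = 0.0211, limma) and Txnip (-0.41, adjusted p = 0.00517), both under the fold threshold. With voom, with length and GC trends removed, or without replicate 3, 1 gene of the list was called lower. Irs2, an adaptor of the insulin receptor that FOXO proteins are known to induce when AKT is off, was 0.32, 0.19 and 0.18 FPKM and rose to 0.87, 0.79 and 0.65 FPKM with PI3Kdi. Its groups were well apart, with a log2 fold change of 1.42 (SE 0.23, adjusted p = 0.00455, limma), and its call was lost without replicate 2. Ypel3, a growth suppressor gene, was 8.22, 10.5 and 20.8 FPKM and rose to 16.2, 24.3 and 44.7 FPKM (1.09, adjusted p = 0.00238). Here the pairs differed in level by more than the treatment did, and each pair still rose about as much as the others.

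Transcription factors of memory T cells were called higher for 3 of 12 genes and lower for 0, against 1.82% and 0.964% of all genes. These were Tcf7 and Klf2 and also Id3, an inhibitor of E proteins found in memory precursors, whose log2 fold change was 0.77 (SE 0.09, adjusted p = 0.000704, limma). Of 18 transcription factors of effector cells, 1 was called higher and 1 lower, against the same shares of all genes. Batf3, an AP-1 factor, rose by 0.64 on the log2 scale. Zfp683, which encodes the factor HOBIT of resident T cells, was 6.25, 14.2 and 6.82 FPKM without and 3.42, 7.19 and 3.89 FPKM with PI3Kdi. Replicate 2 stood above the others in both groups, so the groups overlapped, and the call (-0.87, adjusted p = 0.0155) was lost when any pair was left out. Mycn, a MYC family gene, fell from 39.9, 36.1 and 38.7 to 27, 25.0 and 24.3 FPKM, with groups far apart and a log2 fold change near the threshold (-0.59, adjusted p = 0.00087). It was the single gene called among 10 of the MYC network, and its call was lost without replicate 3 (-0.55) and with a pseudocount of 1 FPKM (-0.57).

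Of 14 inhibitory receptors, 3 were called higher and 0 lower, against 1.82% and 0.964% of all genes, and the median log2 fold change was 0.35. Ctla4, which competes with CD28 for its ligands, was 5.53, 3.76 and 4.60 FPKM and rose to 8.63, 7.83 and 6.76 FPKM with PI3Kdi (log2 fold change 0.74, SE 0.16, adjusted p = 0.0143, limma). Cd160, a receptor of the immunoglobulin family, was 17.6, 23.8 and 32.4 FPKM and rose to 32.5, 42.1 and 49.3 FPKM (0.77, adjusted p = 0.00137). All libraries of Ctla4 with PI3Kdi were above those without, whereas those of Cd160 nearly met at 32.4 and 32.5 FPKM. Btla, a receptor for HVEM, was called at a low level with a log2 fold change of 0.62. The other receptors of the study's interest were not called: Lag3 was at 0.48 (adjusted p = 0.0181) and Pdcd1, which encodes PD-1, at 0.47 (adjusted p = 0.0308), both under the fold threshold. Tigit (-0.32, adjusted p = 0.0398) and Lair1 (-0.36, adjusted p = 0.033) were lower, also under it, and Havcr2, which encodes TIM-3, was at -0.07. Ctla4 lost its call without replicate 2 or 3, with log2 fold changes between 0.59 and 0.84 over the 3 pairs left out in turn, and Btla without replicate 3.

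Cytokine receptor chains were above 0 for 20 of 24 genes, beside 46.6% of all genes, with a median log2 fold change of 0.18. Of the 24, 2 were called higher, Kit and Ifngr2, and 0 lower, against 1.82% and 0.964% of all genes. The same shares of all genes stand beside the counts of calls below. The list also held Csf1, the gene of a ligand (-0.04). Of 15 costimulatory and TNF receptors, 3 were called higher and 0 lower: Cd27, a receptor of naive and memory T cells (0.82), Tnfrsf23 (0.90) and Tnfrsf26. Tnfrsf26, a TNF receptor family gene, was 4.0, 4.30 and 4.93 FPKM and rose to 7.77, 9.10 and 9.82 FPKM (0.99, adjusted p = 1.39e-05). Tnfrsf22, of the same list, was at 0.20 and was not called (adjusted p = 0.406, limma). Whether reads were shared among these related genes was not tested. Tnfrsf9 was at 0.17 and Icos at 0.15, and neither was called. Of 13 NK receptors, 3 were called higher and 0 lower: Klrd1 (0.64), Klra5 (0.71) and Cd7. Cd7, an early T and NK cell antigen, was 0.16, 0.32 and 0.21 FPKM without and 0.55, 0.79 and 1.5 FPKM with PI3Kdi (1.59, SE 0.21, adjusted p = 0.00137, limma). Its groups did not overlap, although it had only 3 to 12 estimated reads per library without PI3Kdi and 19 to 30 with it. Of 9 SLAM family genes 0 were called, and Ly9 was at -0.51 (adjusted p = 0.00153). With a pseudocount of 0.01 FPKM, 1 gene of that family was called higher. Of 15 trafficking receptors, Cxcr4, the receptor for CXCL12, rose (0.73, adjusted p = 0.00678) and Ptgdr2 fell. Of 17 integrins, the CD103 gene Itgae rose at a low level (0.71, adjusted p = 0.0414), while Itgb2 was at -0.50. Leaving out a pair ended the calls of Cd27, Cxcr4 and Klrd1 (without replicate 2), Tnfrsf23 (2 or 3), Klra5 (1 or 3) and Itgae (any), with log2 fold changes between 0.48 and 0.97.

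Secreted factors changed in both directions. Of 17 cytokines, 2 rose and 2 fell, and of 6 chemokines 1 rose and 3 fell. Over all genes, 1.82% rose and 0.964% fell. The median log2 fold change of the chemokines was 0.15 in pair 1, -0.89 in pair 2 and -1.06 in pair 3. Without replicate 2 or without replicate 3, 0 chemokines were called lower. Ccl5, a chemokine of memory and effector T cells, was 23.1, 23.9 and 31.3 FPKM and rose to 44.0, 49.8 and 57.8 FPKM with PI3Kdi (log2 fold change 0.95, SE 0.08, adjusted p = 9e-05, limma). Ccl3 and Ccl4, chemokines that attract effector T cells and macrophages, moved the other way. Ccl3 was 3.94, 2.59 and 3.35 FPKM and fell to 2.77, 1.36 and 1.48 FPKM (-0.83, adjusted p = 0.0117), and Ccl4 was 19.7, 12.4 and 14.7 FPKM and fell to 14.2, 6.61 and 7.13 FPKM (-0.80, adjusted p = 0.0124). In both, replicate 1 was the highest in each group and its library with PI3Kdi overlapped those without. Neither was called without replicate 2 or without replicate 3, with log2 fold changes of -1.0 to -0.69 for Ccl3 and -0.97 to -0.68 for Ccl4.

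Ifng, which encodes interferon gamma, was 26.4, 27.2 and 32.3 FPKM without PI3Kdi and 21.7, 16.9 and 16.2 FPKM with it. The groups did not overlap, with a log2 fold change of -0.65 (SE 0.12, adjusted p = 0.00656, limma), and replicate 1 fell the least. Its call was lost without replicate 2 or without replicate 3 (-0.84 to -0.49). Ltb, whose promoter is shown above and whose product helps to build lymphoid tissue, was 22.7, 27.5 and 39.7 FPKM and rose to 39.9, 53.3 and 87.3 FPKM (0.97, adjusted p = 0.000448). Il24, a cytokine of the IL-10 family, was 54.2, 57.2 and 55.9 FPKM and rose to 91.1, 87.2 and 80.1 FPKM (0.63, adjusted p = 0.00038), and fell under the fold threshold without replicate 1 (0.56). The called cytokines were thus Ltb and Il24, which rose, and Spp1 and Ifng, which fell, and the median of the list was a log2 fold change of -0.05.

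Of 19 granule genes, 1 was called higher and 0 lower, against 1.82% and 0.964% of all genes. The median of the list was a log2 fold change of 0.05. Gzmb, the main granzyme of CTL, was 10191, 9481 and 8588 FPKM without and 10955, 10613 and 7891 FPKM with PI3Kdi. Its groups overlapped widely (log2 fold change 0.05, adjusted p = 0.811, limma). Prf1, which encodes perforin, was 542, 480 and 286 FPKM and then 410, 362 and 216 FPKM. Each pair was lower with PI3Kdi while the groups overlapped, and at a log2 fold change of -0.40 it was under the fold threshold (adjusted p = 0.0463). Gzmf, a granzyme of long-activated CTL, was the gene called, from 17.98, 22.3 and 12.3 to 29.5, 46.0 and 20.2 FPKM (0.82, adjusted p = 0.00511). Granzymes of its cluster are similar in sequence, so its reads are less certain. Gzma was at 0.44 (adjusted p = 0.0211).

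**Figure D3:**
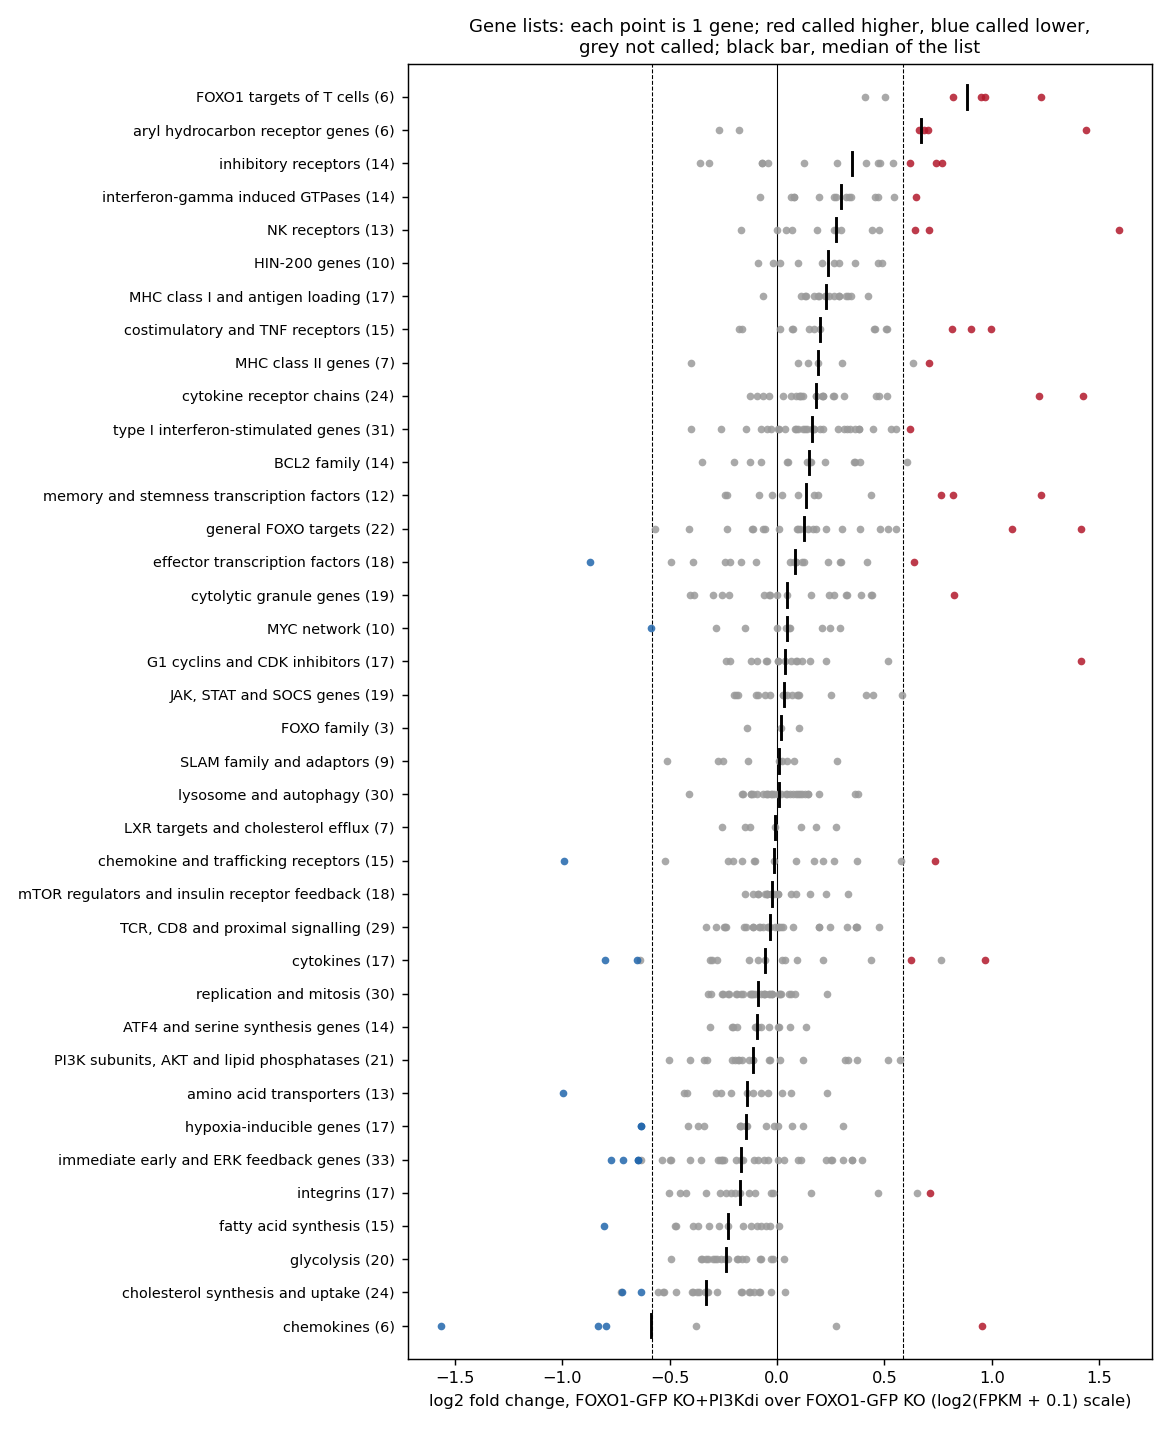
Log2 fold changes with PI3Kdi in FOXO1-GFP KO CTL for the members of gene lists. Each point is a gene, coloured where called, each bar is the list's median, and dashed lines mark the fold threshold of 1.5. Medians lie to the right of 0 for FOXO1 targets of T cells (0.88) and AhR genes (0.67). They lie to the left for cholesterol synthesis genes (-0.33) and chemokines (-0.59), although the chemokine median was 0.15 in pair 1.

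Genes of the AhR pathway were called higher in 4 of 6 cases, against 1.82% of all genes. AhR is a transcription factor that binds small aromatic molecules. None of the 6 was called lower, and the median log2 fold change was 0.67, against -0.02 over all genes. Besides Ahrr, Tiparp, a feedback inhibitor of AhR with a match in its promoter, was 4.70, 5.02 and 3.37 FPKM and rose to 7.84, 8.85 and 5.10 FPKM with PI3Kdi (log2 fold change 0.71, SE 0.11, adjusted p = 0.00256, limma). Nqo1, a quinone reductase, was 1.17, 0.96 and 1.55 FPKM and rose to 2.04, 2.14 and 1.82 FPKM (0.68, adjusted p = 0.039). The groups did not overlap for either gene. Cyp1b1, a monooxygenase, rose from a very low level, 0.03, 0.08 and 0.04 FPKM, to 0.10, 0.26 and 0.08 FPKM (0.66). Nqo1 and Cyp1b1 lost their calls without replicate 1 or without replicate 2. The receptor itself, Ahr, was at -0.18 and its partner Arnt at -0.27, and neither was called.

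Genes of the ERK pathway fell where they were called. Of 33 immediate early and ERK feedback genes, 0 rose and 4 fell, against 0.964% of all genes that fell, and the median log2 fold change was -0.17. Egr1, an early target of ERK, was 11.2, 5.18 and 6.35 FPKM without PI3Kdi and 7.79, 2.67 and 3.44 FPKM with it (log2 fold change -0.77, adjusted p = 0.0355, limma). Etv5, an ETS factor, was 3.17, 3.99 and 1.46 FPKM and fell to 2.66, 2.08 and 0.68 FPKM (-0.72). In both genes the groups overlapped, and the pairs were what separated them. Egr2 (-0.65) and the feedback inhibitor Spry1 (-0.65) were under 1 FPKM. Each of the 4 lost its call when 1 pair or more was left out, with 0 of the list called without replicate 2 and 1 of the 4, Spry1, still called without replicate 3. With a pseudocount of 1 FPKM, or with only the 6 FOXO1-GFP KO libraries in the fit, 1 gene of the list was called. The list also had members that were higher without passing the fold threshold, such as Junb (0.40, adjusted p = 0.00702) and Jun (0.35, adjusted p = 0.00982).

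Genes of lipid synthesis that were called had fallen, 2 of 24 for cholesterol and 1 of 15 for fatty acids, against 0.964% of all genes. Of the 24 genes of cholesterol synthesis and uptake, 23 lay below 0, beside 53.4% of all genes, and 12 had an adjusted p under 0.05, all of them lower, beside 4.06% of all genes. The median log2 fold change was -0.33. Insig1, the sterol sensor partner that is itself a target of SREBP, was 31.4, 22.6 and 12.6 FPKM and fell to 21.6, 12.6 and 7.18 FPKM (-0.72, SE 0.15, adjusted p = 0.0124, limma). Replicate 3 was lowest and replicate 1 highest in each group, so that the groups overlapped although every pair fell. Hsd17b7, an enzyme of the late pathway, was the second (-0.63), and Idi1 was at -0.73 but was not called (adjusted p = 0.0558). Of 15 genes of fatty acid synthesis, 14 lay below 0, 5 had an adjusted p under 0.05 and 1 was called: Scd1, which desaturates fatty acids, was 12.1, 15.3 and 4.89 FPKM and fell to 6.59, 8.76 and 2.84 FPKM (-0.81, adjusted p = 0.0156). Insig1 lost its call without replicate 2, Scd1 without replicate 1 and Hsd17b7 without any 1 pair.

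No glycolysis gene was called. Of 20 genes, 19 were below 0 and 6 had an adjusted p under 0.05, all lower, beside 53.4% and 4.06% of all genes. The list ran from -0.49 (Slc16a3, the lactate exporter) to 0.03 (Gpi1), with a median log2 fold change of -0.24. Of 17 hypoxia-inducible genes, 2 fell, the prolyl hydroxylase gene Egln3 (-0.63) and the oxidase gene Ero1l (-0.63), and 0 rose, against 0.964% of all genes that fell. Both calls were lost without replicate 2 and without replicate 3, with log2 fold changes of -0.65 to -0.61 over the pairs left out in turn. Of 13 amino acid transporters, 1 fell, Slc16a10. None of 14 ATF4 and serine synthesis genes, 30 genes of replication and mitosis, 30 of lysosome and autophagy or 14 of the BCL2 family was called.

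Few genes of antigen presentation or of the interferon response were called. Of 17 genes of MHC class I and its antigen loading, 0 were called, 16 were above 0, beside 46.6% of all genes, and 10 had an adjusted p under 0.05, all higher, beside 6.02% of all genes. Their median log2 fold change was 0.23, from -0.07 (Erap1) to 0.42 (H2-T23). Of 14 GTPases induced by interferon gamma, 13 were above 0 and 1 was called: Gbp2, a guanylate-binding protein, was 84.2, 106 and 83.8 FPKM and rose to 155, 150 and 124 FPKM with PI3Kdi (log2 fold change 0.65, SE 0.10, adjusted p = 0.00235, limma). All of its libraries with PI3Kdi exceeded those without. Of 31 type I interferon-stimulated genes, 1 was called, Rtp4 (0.62), a share near the 2.79% of all genes. Ribosomal protein genes were above 0 for 78 of 80, with a median of 0.22 and 0 called. That median was 0.11 after quantile normalization. Among the 38 histone genes 1 rose (H2ac11, 0.75) and 2 fell (H1f2, -0.69, and H2bc13), each losing its call when 1 pair or more was left out. H2-DMa, which helps to load MHC class II, rose by 0.71 on the log2 scale and was the gene called of 7 in its class. Gbp2 lost its call without replicate 1, and Rtp4 without replicate 1 or 2.

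The responses were then set beside those of WT CTL. The inhibitor called 342 genes (2.57%) in WT CTL, of which 76 were called higher in both genotypes, 37 were lower in both and 0 went in opposite directions. Of the 242 genes that rose in FOXO1-GFP KO CTL, 190 were above 0 in WT with a median WT log2 fold change of 0.41, and of the 128 that fell, 108 were below 0 in WT with a median of -0.41. Because these genes were chosen by the response in FOXO1-GFP KO CTL, smaller values in WT are part of the selection. A direct test of the difference between genotypes called 3 of the 13283 genes (0.0226%, limma, replicate block), and none of these was among the 370. Thus no call in FOXO1-null CTL was shown to differ from WT, and a difference that did not pass the test is not shown to be absent. Tgfb3, for example, had log2 fold changes of 1.24 and 0.36 in FOXO1-GFP KO and WT (adjusted p of the difference = 0.258). For FOXO1 targets the WT values were 1.56 for Tcf7, 1.15 for Il7r, 1.53 for S1pr1 and 1.11 for Klf2, against 1.23, 0.97, 0.95 and 0.82 in FOXO1-GFP KO, and the adjusted p of each difference was between 0.327 and 0.757. The paper made another comparison, of inhibited FOXO1-null with inhibited WT CTL. It lists Tcf7, S1pr1, Klf2 and Ctla4 as dependent on FOXO1, since they were lower in the former. Il7r is not on that list. A rise in FOXO1-null CTL thus does not show that the level of a gene was independent of FOXO1.

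The 3 genes called for the difference were Cd38, Slamf6 and Tbc1d4. Cd38, an enzyme that consumes NAD and marks activated T cells, was 2.01, 2.03 and 1.98 FPKM in FOXO1-GFP KO CTL and 2.82, 2.78 and 2.53 FPKM with PI3Kdi. In WT CTL it was 2.03, 1.92 and 2.07 FPKM and then 0.97, 1.05 and 1.22 FPKM. The groups without PI3Kdi were alike in level, the inhibited FOXO1-GFP KO libraries were all higher and the inhibited WT libraries all lower. The log2 fold changes were 0.41 and -0.84, and they differed by 1.26 (95% confidence interval 1.02 to 1.49, adjusted p = 0.00105, limma). Slamf6, a receptor of progenitor-like T cells, was 0.04, 0.03 and 0.01 FPKM in FOXO1-GFP KO and 0.07, 0.05 and 0.04 FPKM with PI3Kdi, which is 1 to 23 estimated reads per library. Each pair was higher with PI3Kdi, with a log2 fold change of 0.28 (adjusted p = 0.129, limma). All of these values were under the pseudocount of 0.1 FPKM, which shrinks their fold change. In WT Slamf6 was 0.33, 0.22 and 0.21 FPKM and 1.13, 1.13 and 0.88 FPKM, so that it rose by 1.71 there on the log2 scale (difference -1.43, adjusted p = 0.00813). Tbc1d4, a substrate of AKT that controls glucose transporter traffic, was 0.09, 0.14 and 0.07 FPKM and 0.10, 0.12 and 0.10 FPKM in FOXO1-GFP KO, and 0.41, 0.21 and 0.26 FPKM and 1.52, 0.63 and 1.07 FPKM in WT. It was at 0.06 without FOXO1 and rose by 1.53 in WT (difference -1.47, adjusted p = 0.0272). Cd38 was called for the difference in each fit with a replicate block, also without FOXO1-GFP KO replicate 1, 2 or 3 (1.23, 1.24 and 1.29), but not without the block (adjusted p = 0.294). Slamf6 was not called with the block as fixed terms (adjusted p = 0.128), with voom (0.272), with a pseudocount of 0.01 FPKM (0.179), or without replicate 2 (0.0598) or 3 (0.0764). Tbc1d4 was not called with fixed terms (adjusted p = 0.128), voom (0.058), that pseudocount (0.0779), or without replicate 1 (0.0730), 2 (0.0805) or 3 (0.0880). Both were under the filter of a mean of 1 FPKM, and neither was called without the block.

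**Figure D4:**
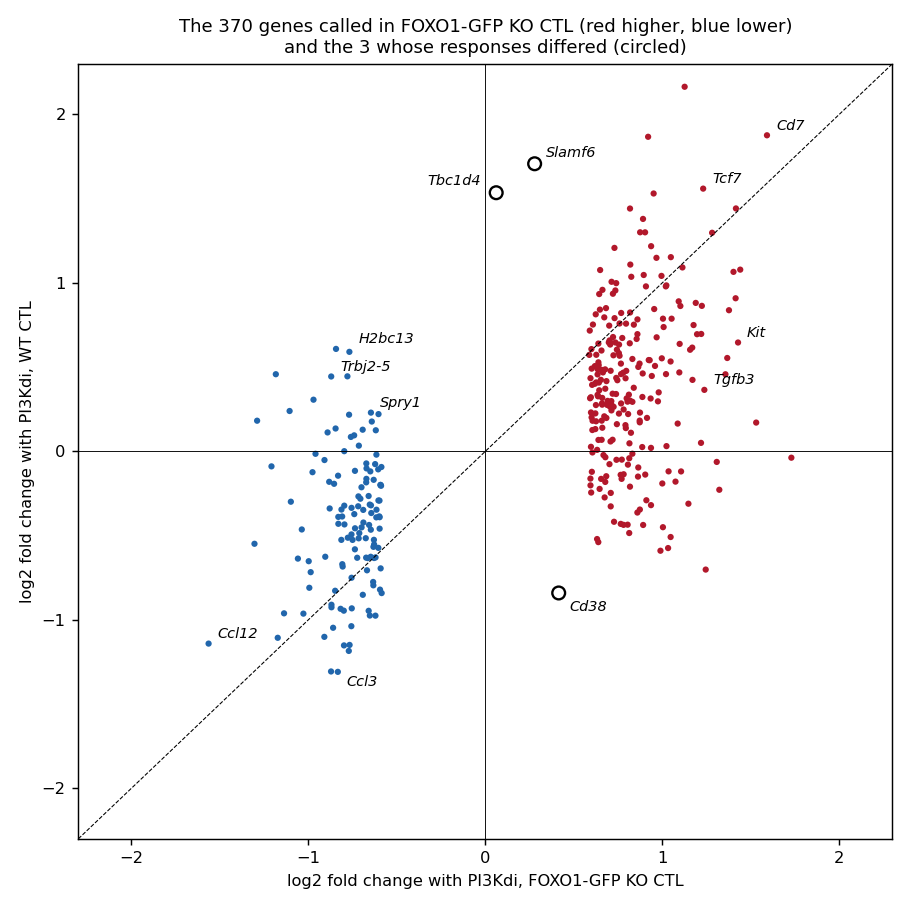
Log2 fold change with PI3Kdi in WT CTL (y axis) against that in FOXO1-GFP KO CTL (x axis) for the 370 genes called in FOXO1-GFP KO, with Cd38, Slamf6 and Tbc1d4 circled. Most genes lie in the quadrants of one sign (190 of 242 rises and 108 of 128 falls), and the gap around 0 on the x axis comes from the fold threshold. Slamf6 lies at 0.28 and Tbc1d4 near 0 on the x axis, both high on the y axis.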

How the data were processed

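RNA was sequenced from 12 libraries of sorted CD8+ CTL, 3 per group (TruSeq Stranded mRNA, 300 ng RNA, 75 bp paired reads). The authors aligned reads with STAR 2.7.1a to GRCm38.p6, counted reads per gene, filtered genes with filterByExpr, scaled libraries by TMM and deposited FPKM (edgeR) with 2 decimals. The setting for strand in counting was not given in the sources used here, so overlapping and antisense genes are uncertain. The deposited table holds 13283 genes and 0 further columns of per-sample values, and genes removed by the filter could not be tested.

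R 4.3.3 and limma 3.58.1 modelled log2(FPKM + 0.1) in all 12 libraries as 4 group means, with empirical Bayes and a mean-variance trend. Fold changes are on that scale, which understates those of low genes. Calls needed an adjusted p (Benjamini-Hochberg) under 0.05 and a fold change over 1.5 (log2 0.585). The replicate block was a random effect of genotype by BR number (consensus correlation 0.757). The pairing comes from the numbers in the labels: deviations from the group mean correlated at 0.594, 0.603 and 0.780 for libraries of FOXO1-GFP KO with the same number and at -0.645 to 0.242 for other numbers. Deviations within a group cancel out, so values for other numbers tend to be negative where those for the same number are positive. That contrast is thus partly built in. Effective depth came from the FPKM spacing of genes up to 400 bp (GENCODE M21 lengths, GRCm38). In held-out genes 89.1 to 96.2% of values came out as whole reads, against 9.54 to 30.2% by chance. In simulated data of this comparison, 200 of the 13283 genes were given a log2 change of 1, all with a mean of at least 1 FPKM. A shift shared by the libraries of a pair was built into these data. This fit recovered 97.5% and called 7 unchanged genes. Without the block, the fit recovered 73.5% and called 1. The gain from the block was thus built in and cannot decide whether the pairing holds. Recovery of smaller changes, which most called genes had, or of genes at lower levels was not tested. Replicates are labelled biological, without a named mouse. The p-values of the main fit rest mostly on how much the change within a pair varied between pairs. Those of the fit without the block rest on the full spread between replicates.

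The members and gene lists were chosen with earlier results of these data known. Some genes that these rules pick are not reported here. Named were genes set from the study's text; the 12 largest called rises and 12 falls with a mean of at least 1 FPKM in a group, no overlap between groups, one direction in all pairs and no predicted gene model; called or range-setting members of 47 lists; and genes called for the difference of responses. Pdcd4, Prnp, Tnfrsf26, 2610300M13Rik, Cxcr3, Fkbp1a, Idi1, Pik3cd, Tigit, Lair1, Ly9, Itgb2, Ahr, Arnt, Jun, Junb, Txnip and the T cell receptor gamma segments were picked with their values in view. For 2 called genes 1 group had at most 3 estimated reads in every library, and no fold was read for them. Promoter windows were taken from RefSeq (GRCm38.p6). Alternatives were the block left out or as fixed terms, other pseudocounts, filter, scaling, fold threshold and test (voom), removal of length and GC trends, and each pair left out.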

Additional observations from a re-analysis of the deposited data

Results flagged for a closer look

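The log2 response to PI3Kdi differed between FOXO1-GFP KO and WT CTL for 5 genes at an adjusted p under 0.05 in the test of the difference itself (limma, replicate block). For Cd38 the response in FOXO1-GFP KO exceeded that in WT by 1.2552 (95% confidence interval 1.02 to 1.49, adjusted p = 0.00105), with a rise in the first and a fall in the second. For Slamf6 the difference was -1.4283 (-1.78 to -1.08, adjusted p = 0.00813), and for Tbc1d4 it was -1.4735 (-1.92 to -1.03, adjusted p = 0.0272). Both genes were low in FOXO1-GFP KO and raised by the inhibitor in WT. Both differences were lost when the block was fitted as fixed terms (adjusted p = 0.128). Slamf6 was also higher with PI3Kdi in each FOXO1-GFP KO pair. With a pseudocount of 0.01 FPKM or with voom its difference was smaller (-1.16 and -1.09), while that of Tbc1d4 was larger (-1.67 and -1.83).

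A further 2 genes had differences under the fold threshold. Cxcr3, the receptor for interferon-induced chemokines, was 13.1, 13.9 and 15.7 FPKM in FOXO1-GFP KO and 8.88, 10.2 and 10.6 FPKM with PI3Kdi. In WT it was 19.6, 19.6 and 20.6 FPKM and then 21.96, 20.1 and 20.1 FPKM. Its groups were apart in FOXO1-GFP KO and overlapped in WT, with log2 fold changes of -0.52 and 0.06 and a difference of -0.5768 (adjusted p = 0.0207, limma). Fkbp1a, which encodes the binding protein of rapamycin, was 72.7, 71.3 and 70.3 FPKM in FOXO1-GFP KO and 78.9, 78.0 and 70.1 FPKM with PI3Kdi, and 77.5, 91.2 and 92.3 FPKM and 116, 139 and 143 FPKM in WT. The log2 fold changes were 0.08 and 0.61, with a difference of -0.5256 (adjusted p = 0.0207). For both genes the adjusted p was between 0.0525 and 0.0880 when a FOXO1-GFP KO pair was left out.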

How the results depend on the processing

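The main limit is the pairing. Against 370 calls (242 higher, 128 lower), the fit with no replicate block gave 6 (6 higher, 0 lower), 13 in WT, 0 for the difference of responses and 3 of the 55 called list members. With the replicate block as fixed terms there were 328 calls, and 254 with only the 6 FOXO1-GFP KO libraries (68 lower). A pseudocount of 1 FPKM gave 117 (88 higher, 29 lower), 120 in WT, 9 for the difference and 35 list members, and 1 of 0.01 FPKM gave 442 and 1 difference. A mean of at least 1 FPKM left 247 (77 lower) and 200 in WT. Quantile normalization gave 372, voom 446 and a correction for gene length and GC content 370, with 7, 6 and 6 for the difference; that correction changed the split to 222 higher and 148 lower. With no fold threshold there were 1339. Without replicate 1, 2 or 3 the counts ran from 190 (replicate 2) to 337, 131 to 239 higher, 59 to 98 lower, 1 to 6 for the difference, 334 to 357 in WT and 31 to 48 list members.

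No called value among 69 named genes changed sign in any of these fits. These 69 leave out Pdcd4, Prnp and 2610300M13Rik, which were picked with their values in view and were also called with no replicate block. Of the 69, 3 stayed called with no replicate block, 66 and 54 with fixed terms (12 and 6 libraries), 43 and 68 with pseudocounts of 1 and 0.01 FPKM, 68 with quantile normalization, 66 with voom, 61 with the length and GC correction, and 49, 38 and 43 without replicate 1, 2 or 3. All 55 of them that passed the filter on low values stayed called under it. The cause of these changes was not tested. Counting error limits genes at a few reads, such as Slamf6 and Cd7.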

Other observations

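Segments of the T cell receptor gamma locus were higher with PI3Kdi in FOXO1-GFP KO CTL, as all 5 in the table were called, in a comparison where 1.82% of genes were called higher. The constant gene Trgc2 was 83.3, 104 and 132 FPKM without PI3Kdi and 171, 206 and 238 FPKM with it, and the groups did not overlap. Its log2 fold change was 0.96 (SE 0.09, adjusted p = 0.000161, limma). Trgc1, similar to it in sequence, so that reads could be shared, was at 1.0, Trgc4 at 0.70, the joining segment Trgj1 at 0.79 and the variable segment Trgv2 at 0.66. In WT the median of the 3 constant genes was 0.66. The alpha and beta loci did not move together: of 50 Trav segments 0 rose and 1 fell, of 19 Trbv segments 0 were called, and of 14 Trbj segments 0 rose and 2 fell.

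By gene type, 25 of 331 antisense genes were called higher and 2 lower (8.16% called), beside 163 and 84 of 11365 protein-coding genes (2.17%) and 15 and 6 of 283 lincRNAs (7.42%). Of 676 pseudogenes 17 were higher and 25 lower (6.21%). Whether reads of the antisense genes came from that strand was not tested.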
